A study of Homo sapiens with 12 samples.

Results

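Integrins and the other leukocyte adhesion molecules decide which cells and surfaces a lymphoid cell can hold on to. A set of 38 of these genes was taken by name, and each was followed on the probe set that the array annotation pairs with that symbol alone, or on the brightest of them where there were several. Of the 38, 36 were measured, among 18417 genes in all. ITGA1 had only a probe set shared with PELO and F11R had none of its own, so neither is described further. The set holds 11 measured integrin alpha subunits, 6 beta subunits, 9 members of the immunoglobulin superfamily, 3 genes around selectin and hyaluronan binding, 3 genes of homotypic cell contacts and 4 tetraspanins.

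Expression was measured on 12 single-colour arrays of human lymphoma lines. U-H01 was derived from a Hodgkin lymphoma, and HBL-1 stands for the activated B-cell-like type of diffuse large B-cell lymphoma. Both had been infected with short hairpin RNAs against RelB and cRel, members of the NF-kB family of transcription factors, and doxycycline was given to part of the cells to switch the hairpin on. The series' design text also names RelA. The 4 groups are U-H01 cells labelled induced (4 arrays), U-H01 cells without doxycycline (4 arrays), HBL-1 cells with doxycycline (2 arrays) and HBL-1 cells without it (2 arrays). All of them carry a hairpin, and no array of uninfected cells was used here. The U-H01 arrays come from transduced populations named B1 and B2 and the HBL-1 arrays from a population named C, each at 2 time points whose length the labels do not give. The labels do not tell which hairpin each population carries. Nor do they say that the arrays of a group are independent cultures, and the p-values then rest on a spread between arrays that may be technical. Array values are listed below as B1 at the first and second time point, then B2 at the first and second, and for HBL-1 as the first and second time point of C.

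An integrin is a pair of 1 alpha and 1 beta chain, and neither chain reaches the cell surface without a partner. On leukocytes the beta2 integrins bind ICAM molecules, the alpha4 integrins bind VCAM1 and fibronectin or, with beta7, the gut vessel molecule MADCAM1, and most other beta1 and alphaV integrins bind extracellular matrix. Selectins and their ligands start the rolling of leukocytes along vessels, CD44 binds hyaluronan, cadherins join like cells, tetraspanins gather integrins and other receptors in the membrane, and several of these genes, VCAM1 and ICAM1 best known among them, are induced by NF-kB in vessel cells.

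Because the hairpins were aimed at NF-kB subunits, the upstream sequence of each member was searched for the NF-kB (kB) consensus decamer on both strands. The windows were those of RefSeq on GRCh38.p14, 300 bases each, and 20 of the 36 measured members had at least 1. A gene was counted when any of its windows held a match, which was so for 13.3% of the 27305 genes with a window. The 20 members had 31 windows and these genes 35116, and the shares do not allow for windows per gene. A match was found for 5 of these 20 members (25%), VCAM1, ITGB8, ITGA5 and, in only some of their windows, ITGB1 and ICAM3. The 3 of them that were called in a comparison of groups are shown over the 250 bases before the start site, 5′ to 3′ on the strand of the gene, with the matched letters in capitals. VCAM1 lies at chr1:100719492-100719741 on the plus strand, ITGB1 at chr10:32958231-32958480 on the minus strand and ICAM3 at chr19:10339625-10339874 on the minus strand.
VCAM1: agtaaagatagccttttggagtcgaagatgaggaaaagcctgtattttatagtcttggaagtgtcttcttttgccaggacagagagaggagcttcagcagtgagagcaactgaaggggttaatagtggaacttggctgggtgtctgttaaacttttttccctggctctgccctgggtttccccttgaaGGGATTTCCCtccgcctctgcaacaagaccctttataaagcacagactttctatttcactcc
ITGB1: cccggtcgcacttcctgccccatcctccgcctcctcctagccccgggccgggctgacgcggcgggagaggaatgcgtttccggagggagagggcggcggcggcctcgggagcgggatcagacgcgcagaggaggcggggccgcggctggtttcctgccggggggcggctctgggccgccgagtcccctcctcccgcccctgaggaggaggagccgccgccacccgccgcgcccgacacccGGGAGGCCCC
ICAM3: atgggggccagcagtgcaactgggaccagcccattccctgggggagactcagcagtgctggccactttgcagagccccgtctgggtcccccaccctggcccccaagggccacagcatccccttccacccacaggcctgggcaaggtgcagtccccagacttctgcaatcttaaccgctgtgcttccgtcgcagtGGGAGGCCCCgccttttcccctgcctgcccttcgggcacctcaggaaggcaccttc
In VCAM1 the match spans bases -62 to -53 from the start site, in ITGB1 -10 to -1 and in ICAM3 -56 to -47, and each of the 3 is read on both strands. A match describes letters and not a bound site, and no match in the other windows, that of ICAM1 included, says only that these letters are not in that stretch.

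The genes aimed at were looked at first. RELB stood at 7.22, 7.26, 7.39 and 7.14 log2 units in U-H01 labelled induced, against 7.23, 7.38, 7.54 and 7.45 in U-H01 uninduced, and at 7.57 and 7.40 in HBL-1 induced, against 7.67 and 7.67 in HBL-1 uninduced. REL, the gene of cRel, stood at 10.14, 10.30, 9.95 and 10.26 in U-H01 labelled induced, against 10.05, 9.98, 9.92 and 9.88 in U-H01 uninduced, and at 9.13 and 9.37 in HBL-1 induced, against 9.70 and 9.78 in HBL-1 uninduced. RELA averaged 8.69 in U-H01 labelled induced and 8.45 in U-H01 uninduced (0.24 ± 0.08, adjusted p = 0.0229, limma), and 8.66 in HBL-1 induced and 8.83 in HBL-1 uninduced (-0.17, adjusted p = 0.718, limma). None of the 4 differences of RELB and REL passed the threshold, an adjusted p under 0.05 in limma, which is the rule for every call in the text. For REL the change in U-H01 lay above that in HBL-1 by 0.69 ± 0.15 (adjusted p = 0.00301, limma). A check for mixed-up samples put 4 of the 8 U-H01 arrays apart from the other 4, along the induction label, so that what separates them and the induction cannot be told apart. Over all genes the U-H01 groups correlated at 0.893 to 0.910 with each other, and U-H01 labelled induced with HBL-1 induced at 0.904 to 0.915, while arrays of 1 group correlated at 0.991 to 0.996. CD30 (TNFRSF8), the marker that defines Hodgkin cells, averaged 11.59 in U-H01 labelled induced, against 6.89 in U-H01 uninduced, with 6.63 in either HBL-1 group. Of the 7 Hodgkin cell markers TRAF1 was also higher (2.70), and ID2 (-5.22), GATA3 (-5.19), CCL22 (-1.75) and FUT4 (-0.47) were lower. The group names of U-H01 are used as labels only.

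The adhesion genes differed widely between the U-H01 groups and hardly within HBL-1. In U-H01 labelled induced, 12 of the 36 members were higher and 13 lower than in U-H01 uninduced, 25 in all, where 45.8% of all genes were called, 22.3% higher and 23.5% lower. In HBL-1 induced, 1 of the 36 was called against HBL-1 uninduced, where 0.603% of all genes were. The median absolute difference over the members was 0.75 log2 units in U-H01, against 0.21 over all genes, and 0.13 in HBL-1, against 0.10 over all genes. Sorted by group means, 5 members were highest in U-H01 labelled induced, 4 in U-H01 uninduced and 4 in HBL-1. Another 3 were high in both U-H01 groups, 3 in U-H01 labelled induced and HBL-1, and 4 in U-H01 uninduced and HBL-1, while 13 stayed within 2-fold over the 3 sets of arrays. These values are for bulk RNA, in which fewer cells with a transcript and less transcript per cell cannot be told apart.

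**Figure D1:**
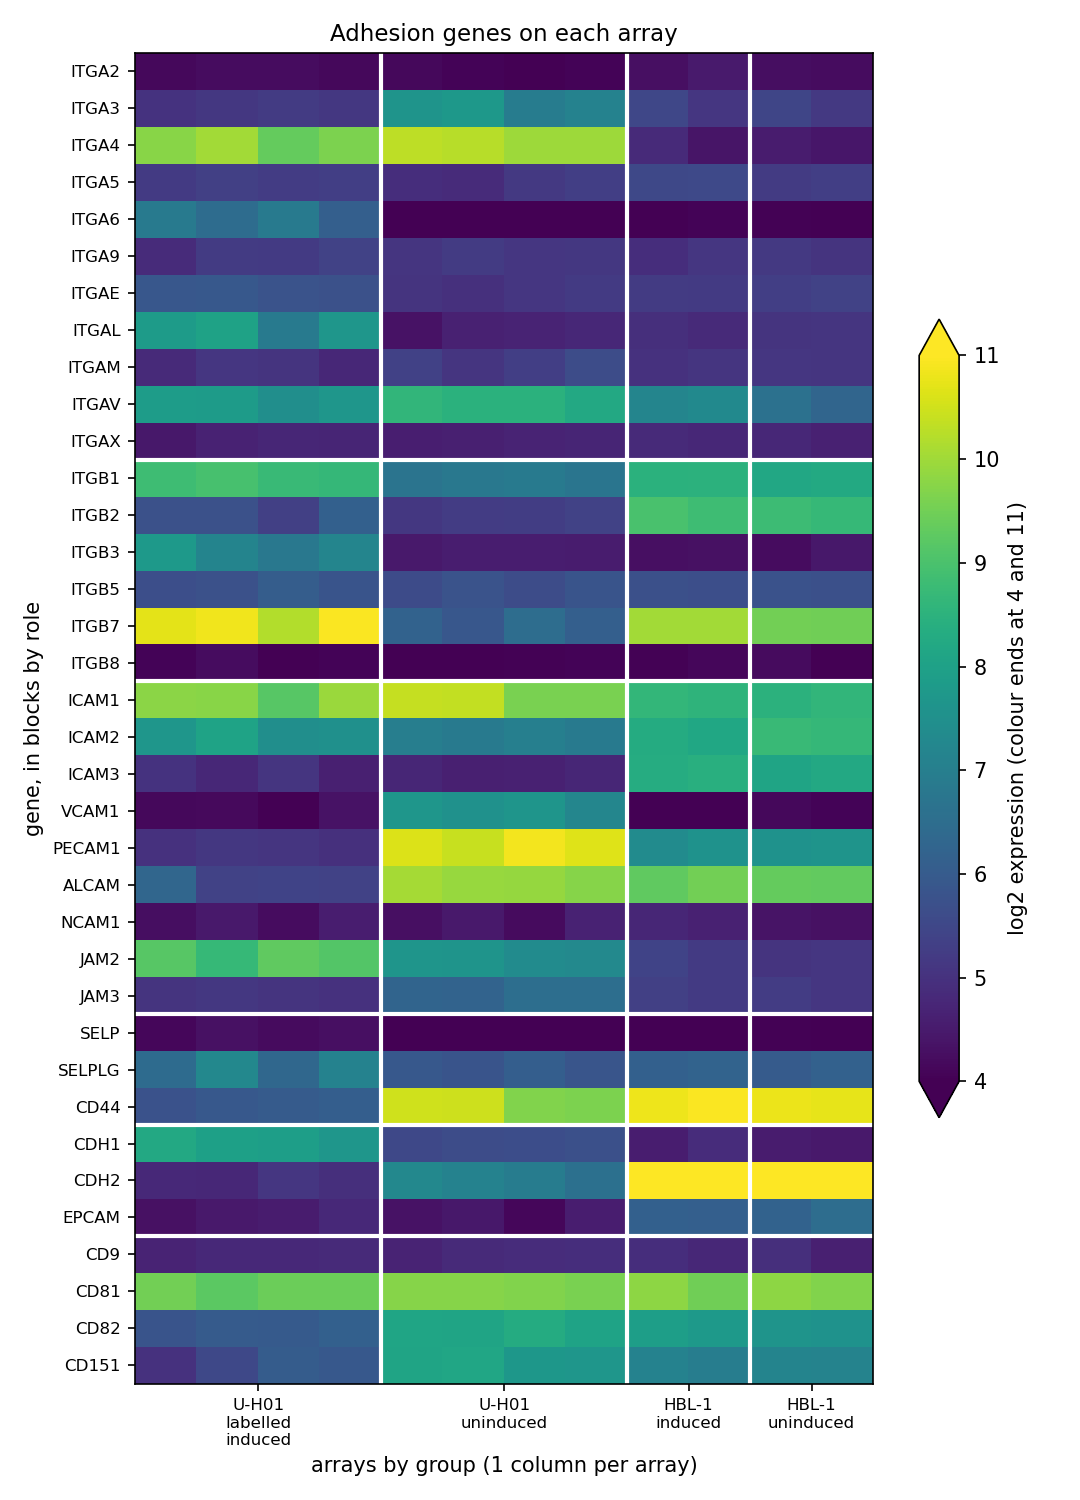
Log2 expression of the 36 measured adhesion genes (rows, in blocks by role) on the 12 arrays (columns, by group), with colour from 4 to 11. The 2 HBL-1 groups look alike across nearly all rows, while ITGB7, CD44, PECAM1, ALCAM and CD82 change colour between the U-H01 groups.

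The alpha4 chain was high in both U-H01 groups and low in HBL-1. ITGA4, which pairs with beta1 or beta7, read 9.76, 10.02, 9.35 and 9.61 in U-H01 labelled induced, 10.31, 10.25, 9.98 and 9.97 in U-H01 uninduced, 4.84 and 4.40 in HBL-1 induced and 4.52 and 4.43 in HBL-1 uninduced. All 8 U-H01 arrays lay far above the 4 HBL-1 arrays, whose values are close to the lower quartile of an array (4.18 to 4.28), where a log2 level can be background and a fold is understated. The difference between the lines was 5.65 ± 0.11 (SE) without induction, a 50.3-fold higher level in U-H01 (adjusted p = 3.4e-12, limma), and 5.06 ± 0.11 with it (33.4-fold, adjusted p = 1.02e-11, limma). Between the U-H01 groups the arrays overlapped, and the labelled induced ones were lower by a fitted 0.44 (log2 difference -0.44 ± 0.09, adjusted p = 0.00135, limma).

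Its partners followed another pattern. ITGB7, the beta7 chain of gut-homing and epithelium-binding integrins, read 10.70, 10.86, 10.18 and 10.95 in U-H01 labelled induced, 6.20, 5.90, 6.49 and 6.12 in U-H01 uninduced, 10.04 and 10.02 in HBL-1 induced and 9.52 and 9.48 in HBL-1 uninduced. The uninduced U-H01 arrays were the low ones and overlapped with no other group. ITGB7 was 22.5-fold higher in U-H01 labelled induced than in U-H01 uninduced (4.49 ± 0.16 log2, adjusted p = 2.35e-10, limma). In U-H01 uninduced it was 10.0-fold lower than in HBL-1 uninduced (-3.32 ± 0.20, adjusted p = 3.58e-08, limma), while in U-H01 labelled induced it was 1.56-fold higher than in HBL-1 induced (0.64 ± 0.20, adjusted p = 0.0224, limma), a call that was lost without either HBL-1 induced array or without labelled induced B1 at either time point or B2 at the second (0.52 to 0.88 over 12 fits with an array left out).

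ITGB1, the beta1 chain shared by most matrix receptors, averaged 8.80 ± 0.12 in U-H01 labelled induced (SD, n = 4), 6.76 ± 0.07 in U-H01 uninduced (n = 4), 8.48 ± 0.02 in HBL-1 induced (n = 2) and 8.23 ± 0.03 in HBL-1 uninduced (n = 2). It followed the order of ITGB7, with the uninduced U-H01 arrays alone at the bottom. The level was 4.09-fold higher in U-H01 labelled induced than in U-H01 uninduced (2.03 ± 0.08, adjusted p = 7.78e-10, limma) and 2.76-fold lower in U-H01 uninduced than in HBL-1 uninduced (-1.47 ± 0.10, adjusted p = 1.48e-07, limma). This is 1 of the genes whose upstream sequence is printed above.

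LFA-1, the alphaL beta2 integrin that binds ICAM1, ICAM2 and ICAM3, was divided between the lines. Its alpha chain ITGAL read 7.85, 8.03, 6.85 and 7.67 in U-H01 labelled induced, 4.33, 4.65, 4.70 and 4.79 in U-H01 uninduced, 4.93 and 4.83 in HBL-1 induced and 5.04 and 5.08 in HBL-1 uninduced. Its beta chain ITGB2 read 5.73, 5.73, 5.32 and 6.15 in U-H01 labelled induced, 5.14, 5.25, 5.27 and 5.39 in U-H01 uninduced, 9.00 and 8.83 in HBL-1 induced and 8.80 and 8.68 in HBL-1 uninduced. So the labelled induced U-H01 arrays held the high alpha chain values and the HBL-1 arrays the high beta chain values. ITGAL was 7.90-fold higher in U-H01 labelled induced than in U-H01 uninduced (2.98 ± 0.17, adjusted p = 1.97e-08, limma) and 6.60-fold higher than in HBL-1 induced (2.72 ± 0.21, adjusted p = 4.61e-07, limma). ITGB2 differed by 0.47 ± 0.12 between the U-H01 groups, higher in labelled induced (adjusted p = 0.00646, limma). It was 9.06-fold lower in U-H01 labelled induced than in HBL-1 induced (-3.18 ± 0.15, adjusted p = 3.9e-09, limma) and 11.1-fold lower in U-H01 uninduced than in HBL-1 uninduced (-3.47 ± 0.15, adjusted p = 1.43e-09, limma).

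ITGA6, a laminin receptor chain, and ITGB3, which pairs with alphaV to bind vitronectin and other matrix proteins, were highest in U-H01 labelled induced. ITGA6 read 6.89, 6.47, 6.87 and 6.11 in U-H01 labelled induced, against 4.0, 3.85, 4.02 and 3.89 in U-H01 uninduced, with 3.86 to 4.06 over the 4 HBL-1 arrays. ITGB3 read 7.76, 7.17, 6.80 and 7.19 in U-H01 labelled induced, against 4.48, 4.55, 4.57 and 4.54 in U-H01 uninduced, with 4.24 to 4.46 over HBL-1. The labelled induced arrays overlapped with no other group for either gene, and the remaining arrays lay near the lower quartile. Against U-H01 uninduced the differences were 2.65 ± 0.11 for ITGA6 (6.26-fold, adjusted p = 7.93e-10, limma) and 2.70 ± 0.15 for ITGB3 (6.49-fold, adjusted p = 9.21e-09, limma). Megakaryocytes and platelets also carry beta3, with the alphaIIb chain. None of their 4 markers (PF4, GP9, ITGA2B and GP1BA) was called between the U-H01 groups, where 45.8% of all genes were. The mean level of the 4 was 4.93 to 5.23 in U-H01 labelled induced and 5.08 to 5.21 in U-H01 uninduced.

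ITGA3 and ITGAV went the other way. ITGA3, a laminin receptor chain, read 5.02, 5.13, 5.23 and 5.13 in U-H01 labelled induced, against 7.63, 7.74, 6.93 and 7.09 in U-H01 uninduced, and 5.12 to 5.48 over HBL-1. Uninduced U-H01 alone was high, by 4.66-fold over U-H01 labelled induced (-2.22 ± 0.14 for labelled induced minus uninduced, adjusted p = 3.23e-08, limma) and by 4.11-fold over HBL-1 uninduced (2.04 ± 0.17, adjusted p = 6.15e-07, limma). ITGAV, the alphaV chain, read 7.86, 7.85, 7.46 and 7.68 in U-H01 labelled induced, against 8.62, 8.46, 8.46 and 8.22 in U-H01 uninduced, and 7.19 and 7.33 in HBL-1 induced, against 6.61 and 6.27 in HBL-1 uninduced. It was lower with the label in U-H01 (-0.72 ± 0.10, adjusted p = 5.99e-05, limma) and higher with induction in HBL-1 (0.82 ± 0.14, 1.76-fold, adjusted p = 0.0248, limma), and the difference between these changes passed the threshold (-1.54 ± 0.17, adjusted p = 2.26e-05, limma). The HBL-1 call rests on 2 arrays a group and was lost when any 1 of them was left out, with differences of 0.57 to 1.06.

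Of the other alpha chains, ITGAE, which with beta7 binds E-cadherin, averaged 5.84 ± 0.09 in U-H01 labelled induced and 5.08 ± 0.09 in U-H01 uninduced (SD, n = 4 each) and was higher in the first (0.76 ± 0.08, adjusted p = 7.95e-06, limma). ITGAM, the Mac-1 alpha chain of myeloid cells, averaged 4.94 ± 0.17 in U-H01 labelled induced and 5.34 ± 0.23 in U-H01 uninduced (SD, n = 4 each), a difference of -0.40 ± 0.12 (adjusted p = 0.0157, limma). That call was lost in 4 of 12 fits with an array left out, those without B1 at the first or B2 at the second time point of either group (-0.52 to -0.28 over the 12). ITGA2, a collagen receptor chain, ITGA5, the fibronectin receptor chain, ITGA9, which binds tenascin, ITGAX, the chain of dendritic cells, and the beta chains ITGB5 and ITGB8, partners of alphaV, were called in none of the 4 comparisons of groups. ITGB8 lay between 3.89 and 4.22 on all 12 arrays and ITGA2 between 3.89 and 4.50, close to the lower quartile of the arrays.

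**Figure D2:**
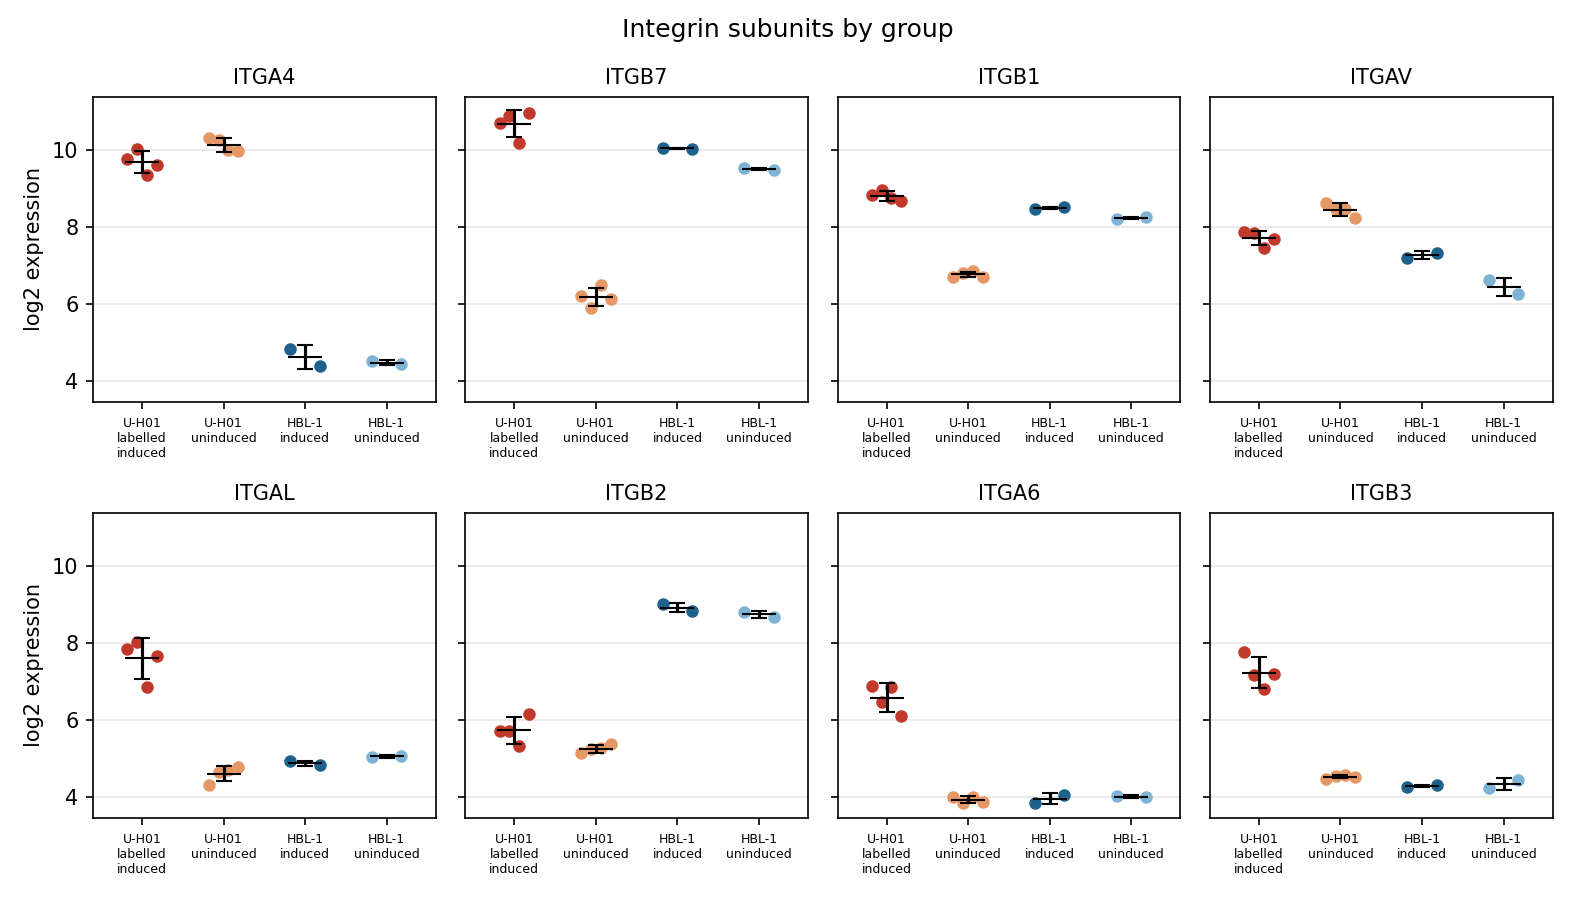
Log2 expression of 8 integrin subunits by group, with 1 point per array and the mean ± SD in black (4 arrays per U-H01 group, 2 per HBL-1 group). ITGA4 is high in both U-H01 groups, ITGB7 and ITGB1 are low in U-H01 uninduced alone, ITGAL, ITGA6 and ITGB3 are high in U-H01 labelled induced alone, and ITGB2 is high in HBL-1.

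Read as pairs, 15 of the known alpha and beta combinations had both chains measured, and several share a chain. Between the U-H01 groups 3 pairs had both chains higher in labelled induced (alpha6 beta1, alphaE beta7 and alphaL beta2) and 6 had chains called in opposite directions (alpha3 beta1, alpha4 beta1, alpha4 beta7, alphaV beta1, alphaV beta3 and alphaM beta2). The alphaM beta2 pair rests on small calls, that of ITGB2 (0.47) and that of ITGAM (-0.40), which was lost in some fits as given above. In U-H01 uninduced against HBL-1 uninduced, 4 pairs were opposite, each with a higher alpha and a lower beta chain (alpha3, alpha4 and alphaV with beta1, and alpha4 with beta7). In U-H01 labelled induced against HBL-1 induced, 6 pairs had both chains higher, among them both alpha4 pairs, and only alphaL beta2 was opposite. Each of these 6 rests on the call of ITGB1 (0.32), ITGB7 (0.64) or ITGAV (0.45), and all 3 calls were lost without the HBL-1 induced array of the first time point, so that none of the 6 then had both chains called. Of all genes taken singly, 45.8%, 42.8% and 38.5% were called in these 3 comparisons, and no share over pairs was taken. RNA levels do not tell how many pairs reach the surface.

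In the immunoglobulin superfamily, 2 of 9 members were higher and 4 lower in U-H01 labelled induced than in U-H01 uninduced, where 22.3% of all genes were higher and 23.5% lower. PECAM1, ALCAM and VCAM1 were the lower ones with large differences. PECAM1 (CD31), a junction molecule of endothelium and leukocytes, read 4.99, 5.14, 5.08 and 4.98 in U-H01 labelled induced, 10.62, 10.40, 10.88 and 10.67 in U-H01 uninduced, 7.39 and 7.58 in HBL-1 induced and 7.57 and 7.62 in HBL-1 uninduced. U-H01 uninduced was highest, HBL-1 between and U-H01 labelled induced lowest, with no overlap between these 3 sets. The fall in U-H01 labelled induced was 48.4-fold, the largest among the 36 members (-5.60 ± 0.09, adjusted p = 3.52e-13, limma). Against HBL-1, PECAM1 was 8.27-fold higher in U-H01 uninduced (3.05 ± 0.12, adjusted p = 4.9e-10, limma) and 5.43-fold lower in U-H01 labelled induced (-2.44 ± 0.12, adjusted p = 4.36e-09, limma). A second, dimmer PECAM1 probe set differed in the same direction between the U-H01 groups (-1.89, adjusted p = 1.96e-06, limma), and with both probe sets averaged the difference was -3.75.

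VCAM1, the vessel ligand of alpha4 beta1, read 4.15, 4.18, 3.83 and 4.33 in U-H01 labelled induced, 7.68, 7.55, 7.65 and 7.22 in U-H01 uninduced, 3.98 and 3.89 in HBL-1 induced and 4.15 and 4.06 in HBL-1 uninduced. It was above the lower quartile of the arrays in U-H01 uninduced and at or near it elsewhere. The difference was -3.41 ± 0.12 for U-H01 labelled induced minus uninduced (10.6-fold lower, adjusted p = 1.85e-10, limma) and 3.42 ± 0.15 for U-H01 uninduced minus HBL-1 uninduced (adjusted p = 1.67e-09, limma). ALCAM (CD166), which binds CD6 and itself, read 6.32, 5.39, 5.40 and 5.37 in U-H01 labelled induced, 10.06, 9.93, 9.89 and 9.73 in U-H01 uninduced, 9.30 and 9.50 in HBL-1 induced and 9.34 and 9.31 in HBL-1 uninduced. Here the labelled induced arrays were the low ones, by 19.4-fold against U-H01 uninduced (-4.28 ± 0.14, adjusted p = 6.05e-11, limma) and by 13.8-fold against HBL-1 induced (-3.78 ± 0.17, adjusted p = 2.22e-09, limma).

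PECAM1 and VCAM1 are known from endothelium. None of 5 endothelial markers (CDH5, VWF, KDR, TEK and EMCN) was called between the U-H01 groups, where 45.8% of all genes were. Their mean level was 4.16 to 4.27 in U-H01 labelled induced and 4.13 to 4.27 in U-H01 uninduced, and each of the 5 stayed under the median of every array. Outside these 5, CD93, also found on endothelial cells, was lower in U-H01 labelled induced (-3.22). What an endothelial trait has to do with these differences was not tested.

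Of the ICAM genes, ligands of the beta2 integrins, ICAM1 and ICAM3 were called between the lines and not between the U-H01 groups, and ICAM2 in both. ICAM3, found on resting leukocytes, read 5.02, 4.79, 5.07 and 4.61 in U-H01 labelled induced, 4.74, 4.62, 4.63 and 4.74 in U-H01 uninduced, 8.33 and 8.42 in HBL-1 induced and 8.08 and 8.23 in HBL-1 uninduced. It was high in HBL-1 alone, with log2 differences of -3.50 ± 0.11 for U-H01 labelled induced minus HBL-1 induced (11.3-fold, adjusted p = 1.5e-10, limma) and -3.47 ± 0.11 for U-H01 uninduced minus HBL-1 uninduced (11.1-fold, adjusted p = 1.4e-10, limma). ICAM2 averaged 7.67 ± 0.27 in U-H01 labelled induced and 6.94 ± 0.09 in U-H01 uninduced (SD, n = 4 each), 8.24 ± 0.09 in HBL-1 induced and 8.69 ± 0.07 in HBL-1 uninduced (n = 2 each). It was higher in U-H01 labelled induced than in U-H01 uninduced (0.74 ± 0.11, adjusted p = 0.000108, limma), and in HBL-1 the induced arrays read lower by 0.45 without passing the threshold (adjusted p = 0.311, limma).

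ICAM1, the inducible ligand of LFA-1, read 9.78, 9.75, 9.18 and 9.96 in U-H01 labelled induced, 10.39, 10.35, 9.60 and 9.59 in U-H01 uninduced, 8.63 and 8.54 in HBL-1 induced and 8.50 and 8.62 in HBL-1 uninduced. All U-H01 arrays lay above all HBL-1 arrays, and the U-H01 groups overlapped. It was 2.12-fold higher in U-H01 labelled induced than in HBL-1 induced (1.08 ± 0.19, adjusted p = 0.000409, limma) and 2.68-fold higher in U-H01 uninduced than in HBL-1 uninduced (1.42 ± 0.19, adjusted p = 3.88e-05, limma). Between the U-H01 groups it did not pass the threshold (-0.31 ± 0.15, 95% interval -0.64 to 0.02, adjusted p = 0.12, limma). Without the labelled induced array of B2 at the second time point, the only 1 of 4 to exceed its uninduced partner, the difference was -0.53 (adjusted p = 0.000336, limma), and without that partner it was -0.43 (adjusted p = 0.0436, limma).

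Of the junctional adhesion molecules, JAM2 read 9.19, 8.70, 9.30 and 9.12 in U-H01 labelled induced, 7.66, 7.62, 7.39 and 7.29 in U-H01 uninduced, 5.40 and 5.19 in HBL-1 induced and 5.06 and 5.12 in HBL-1 uninduced. The U-H01 groups did not overlap and both lay above HBL-1. JAM2 was 3.01-fold higher in U-H01 labelled induced than in U-H01 uninduced (1.59 ± 0.12, adjusted p = 3.04e-07, limma), 13.8-fold higher than in HBL-1 induced (3.78 ± 0.15, adjusted p = 9.53e-10, limma), and in U-H01 uninduced it was 5.29-fold higher than in HBL-1 uninduced (2.40 ± 0.15, adjusted p = 5.2e-08, limma). Its partner JAM3 moved in the opposite direction, with 5.06 ± 0.06 in U-H01 labelled induced and 6.40 ± 0.17 in U-H01 uninduced (SD, n = 4 each) and a difference of -1.34 ± 0.09 (adjusted p = 6.56e-08, limma). NCAM1 (CD56), the marker of natural killer cells, lay between 4.20 and 4.75 on the 12 arrays. Its call in U-H01 labelled induced against HBL-1 induced (-0.32) was lost without either HBL-1 induced array (-0.36 to -0.29 over 12 fits with an array left out).

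**Figure D3:**
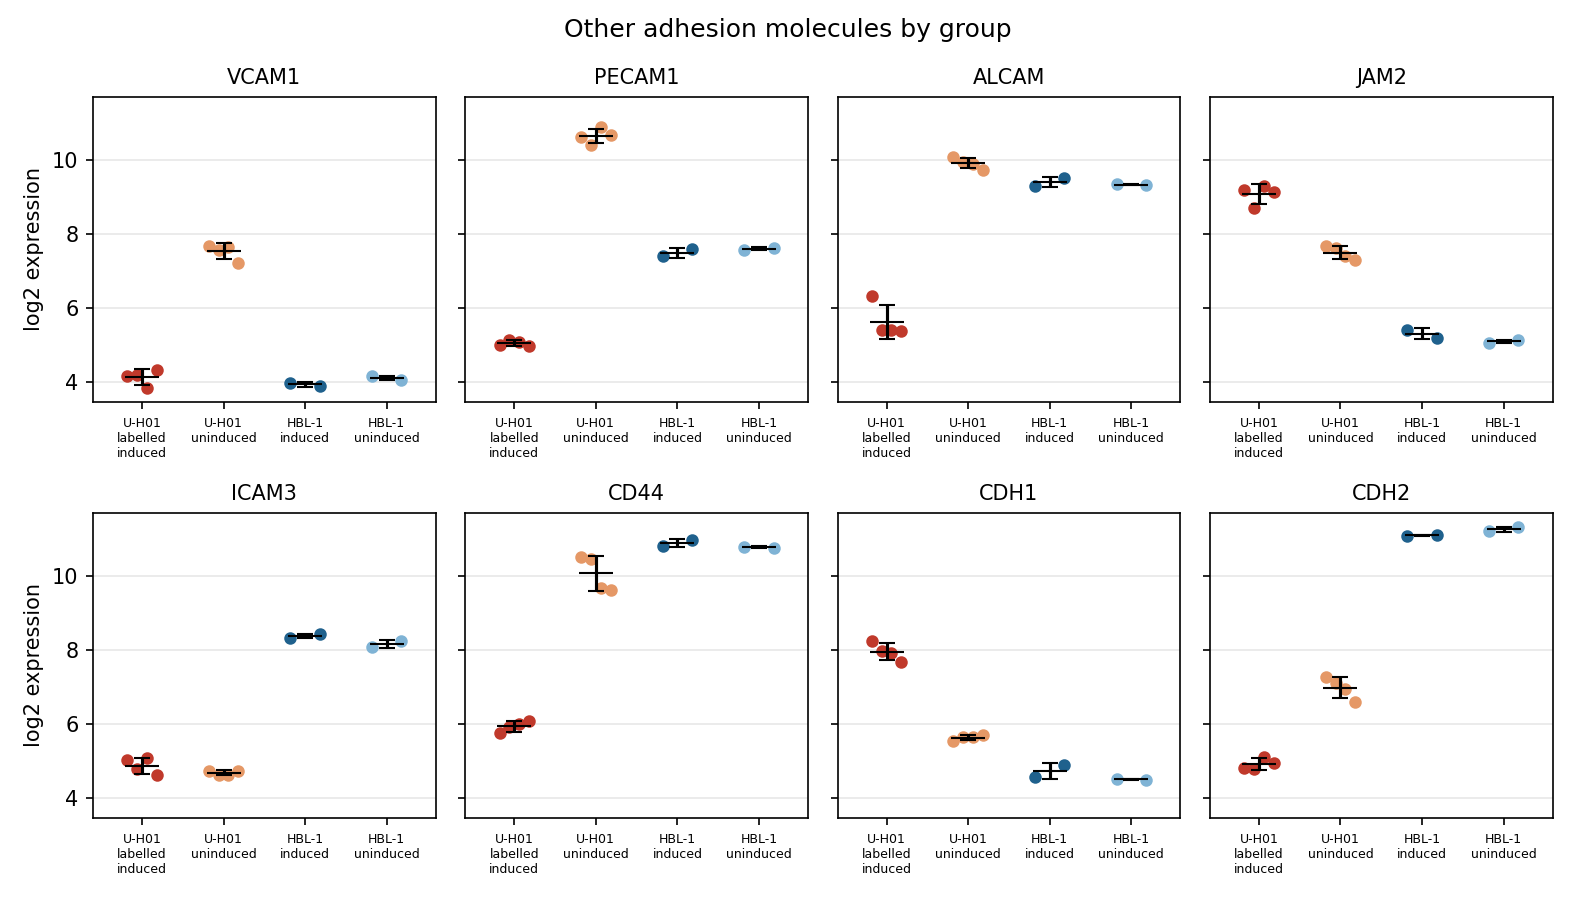
Log2 expression of 8 further adhesion molecules by group, with 1 point per array and the mean ± SD in black (4 arrays per U-H01 group, 2 per HBL-1 group). VCAM1 and PECAM1 are highest in U-H01 uninduced, ALCAM and CD44 are low in U-H01 labelled induced alone, JAM2 and CDH1 are highest there, and ICAM3 and CDH2 are highest in HBL-1.

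CD44, the hyaluronan receptor, read 5.75, 5.92, 6.01 and 6.09 in U-H01 labelled induced, 10.50, 10.46, 9.67 and 9.63 in U-H01 uninduced, 10.82 and 10.97 in HBL-1 induced and 10.79 and 10.75 in HBL-1 uninduced. The labelled induced U-H01 arrays were the low ones, near the median of an array (5.79 to 5.88), and the other 8 arrays lay between 9.63 and 10.97. CD44 was 17.4-fold lower in U-H01 labelled induced than in U-H01 uninduced (-4.12 ± 0.17, adjusted p = 7.44e-10, limma) and 30.9-fold lower than in HBL-1 induced (-4.95 ± 0.21, adjusted p = 1.55e-09, limma). SELPLG, the main P-selectin ligand of leukocytes, averaged 6.79 ± 0.46 in U-H01 labelled induced and 5.92 ± 0.12 in U-H01 uninduced (SD, n = 4 each), a difference of 0.87 ± 0.16 (adjusted p = 0.000669, limma). SELP, P-selectin itself, stayed between 3.84 and 4.31 on all arrays, near their lower quartile. Its call in U-H01 (0.23 ± 0.08, adjusted p = 0.0303, limma) was lost in 6 of 12 fits with an array left out (0.20 to 0.28), those without B1 at the second or B2 at either time point of either group.

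The cadherins ran in opposite orders. CDH1, E-cadherin of epithelia and the ligand of alphaE beta7, read 8.23, 7.98, 7.93 and 7.67 in U-H01 labelled induced, 5.53, 5.64, 5.66 and 5.71 in U-H01 uninduced, 4.57 and 4.89 in HBL-1 induced and 4.52 and 4.49 in HBL-1 uninduced. CDH2, N-cadherin of nerve and mesenchyme, read 4.82, 4.78, 5.12 and 4.95 in U-H01 labelled induced, 7.26, 7.11, 6.95 and 6.59 in U-H01 uninduced, 11.08 and 11.11 in HBL-1 induced and 11.21 and 11.31 in HBL-1 uninduced. CDH1 therefore ran from U-H01 labelled induced down to HBL-1 and CDH2 in the reverse order, with U-H01 uninduced between them and no overlap of the 3 sets for either gene. CDH1 was 4.98-fold higher in U-H01 labelled induced than in U-H01 uninduced (2.32 ± 0.11, adjusted p = 2.57e-09, limma) and 9.32-fold higher than in HBL-1 induced (3.22 ± 0.13, adjusted p = 1.3e-09, limma). CDH2 was 4.16-fold lower in U-H01 labelled induced than in U-H01 uninduced (-2.06 ± 0.12, adjusted p = 2.45e-08, limma) and 72.2-fold lower than in HBL-1 induced (-6.17 ± 0.15, adjusted p = 1.82e-11, limma). In U-H01 uninduced it was 19.5-fold lower than in HBL-1 uninduced (-4.29 ± 0.15, adjusted p = 2.57e-10, limma).

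EPCAM, an epithelial contact molecule, averaged 4.53 ± 0.20 in U-H01 labelled induced and 4.37 ± 0.19 in U-H01 uninduced (SD, n = 4 each), 6.14 ± 0.01 in HBL-1 induced and 6.35 ± 0.19 in HBL-1 uninduced (n = 2 each). It was 3.05-fold lower in U-H01 labelled induced than in HBL-1 induced (-1.61 ± 0.12, adjusted p = 3.17e-07, limma) and 3.94-fold lower in U-H01 uninduced than in HBL-1 uninduced (-1.98 ± 0.12, adjusted p = 3.97e-08, limma). A second EPCAM probe set gave the same directions. Of 6 epithelial markers, KRT18 was higher (0.51) and KRT8 lower (-0.54) in U-H01 labelled induced than in U-H01 uninduced, and KRT5, KRT14, KRT19 and CLDN4 were not called. In this comparison 45.8% of all genes were called. The mean level of the 6 markers was 5.77 to 6.06 in U-H01 labelled induced and 5.78 to 6.05 in U-H01 uninduced.

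Among the tetraspanins, which organise integrins in the membrane, 3 of 4 were lower in U-H01 labelled induced than in U-H01 uninduced and none was higher, where 23.5% of all genes were lower. CD151, a partner of the laminin-binding integrins, read 4.99, 5.51, 6.04 and 5.92 in U-H01 labelled induced, against 8.09, 8.14, 7.71 and 7.69 in U-H01 uninduced, with 6.96 to 7.17 over HBL-1. CD82 read 5.82, 6.01, 5.98 and 6.15 in U-H01 labelled induced, against 8.11, 8.09, 8.31 and 8.06 in U-H01 uninduced, with 7.56 to 7.92 over HBL-1. For both genes the labelled induced arrays lay below all others. The differences were -2.29 ± 0.19 for CD151 (4.90-fold, adjusted p = 6.49e-07, limma) and -2.15 ± 0.09 for CD82 (4.44-fold, adjusted p = 6.79e-10, limma). CD81, a widely expressed tetraspanin, was high on every array (9.24 to 9.81) and its call in U-H01 (-0.27 ± 0.08, adjusted p = 0.0149, limma) was lost without B1 at the second time point of either group (-0.31 to -0.21 over 12 fits with an array left out). CD9 lay between 4.62 and 4.94 on all arrays and was not called.

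In HBL-1, ITGAV was the only member called, as given above, and the induced arrays otherwise stayed close to the uninduced ones. The members next in order of p were NCAM1 (0.36 ± 0.11), ICAM2 (-0.45 ± 0.16), ITGB7 (0.53 ± 0.23) and ITGA5 (0.28 ± 0.12), with adjusted p from 0.224 for NCAM1 to 0.494 for ITGA5 in limma. ICAM2 and ITGB7 were called when the HBL-1 arrays were fitted alone, with 1 residual degree of freedom. In a direct test of the change in U-H01 against that in HBL-1, 21 of 36 members were called, 9 with a more positive and 12 with a more negative change in U-H01, where 32.4% of all genes were called.

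**Figure D4:**
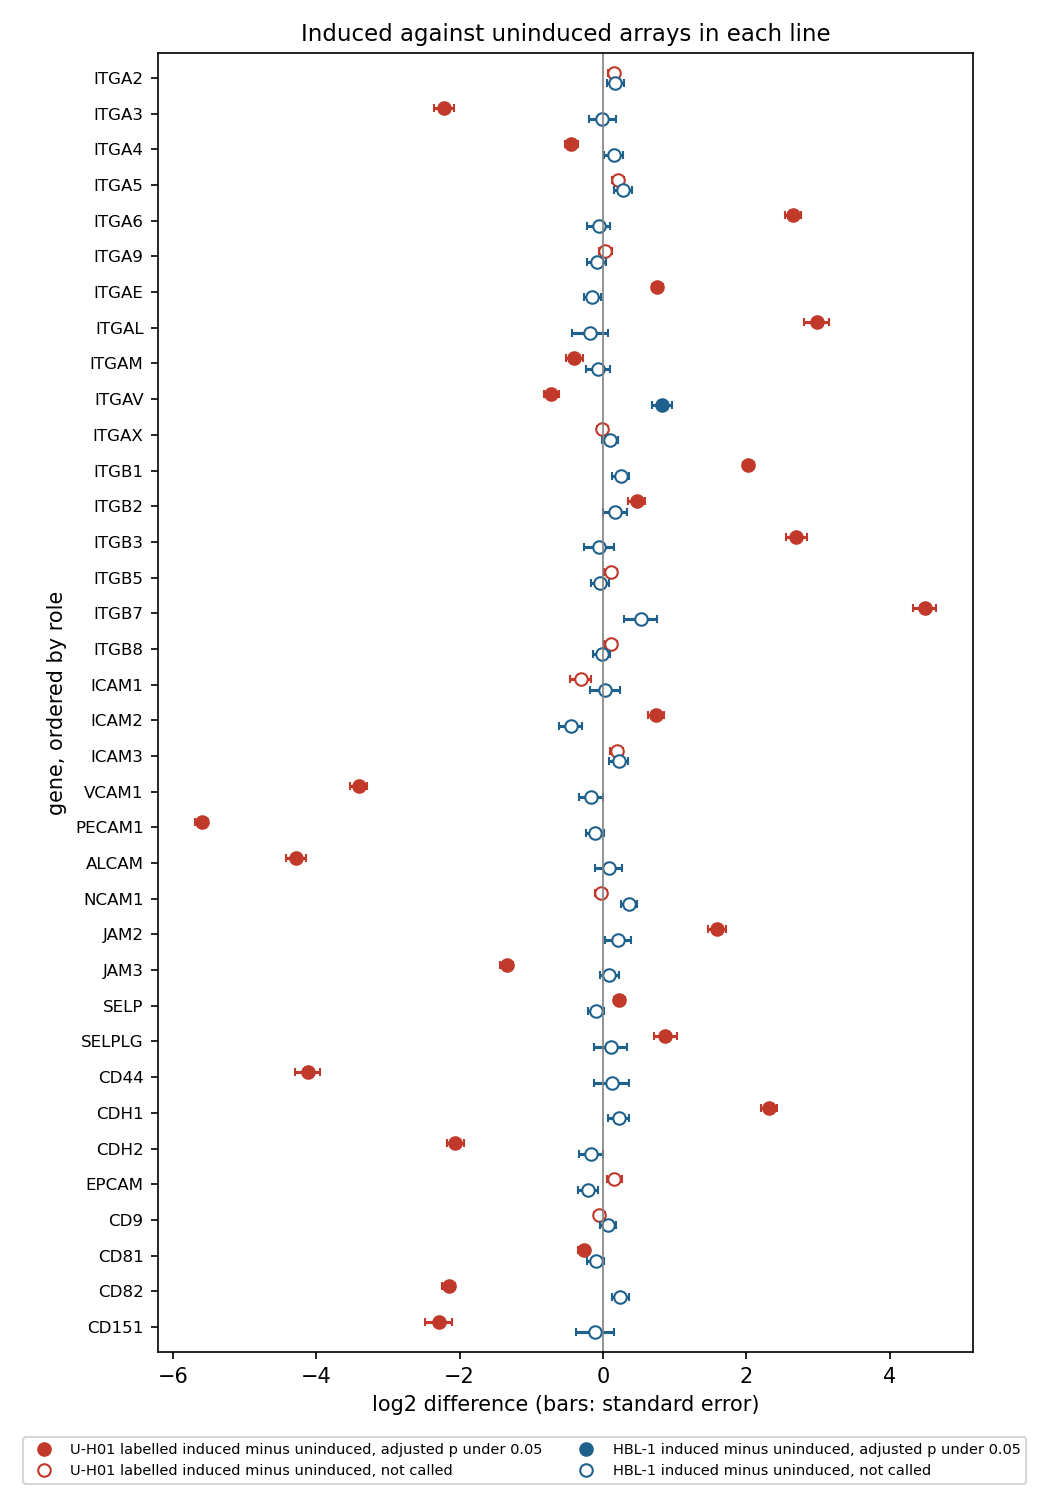
Log2 difference between induced and uninduced arrays for each of the 36 members, in U-H01 (red) and HBL-1 (blue), with standard errors as bars and filled points for an adjusted p under 0.05. U-H01 differences run from -5.60 for PECAM1 to 4.49 for ITGB7, while all HBL-1 differences lie between -0.45 and 0.82.

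Between the lines, 12 members were higher and 8 lower in U-H01 uninduced than in HBL-1 uninduced, 20 in all, where 42.8% of all genes were called, 20.7% higher and 22.1% lower. In U-H01 labelled induced against HBL-1 induced, 13 were higher and 11 lower, 24 in all, where 38.5% of all genes were called, 17.9% higher and 20.6% lower. The lines were grown with different serum contents, per the labels, so line and medium cannot be told apart. The U-H01 groups also stood apart from each other in the check for mixed-up samples. A difference of either group from HBL-1 is therefore not read as 1 of the line alone. The differences in these comparisons share no array with each other, but their p-values use a single spread estimated from all 12 arrays. Each comparison also shares its U-H01 arrays with the comparison of the U-H01 groups. ITGA4, JAM2, CDH1, ICAM1 and ITGAV were higher in U-H01 in both, and CDH2, ICAM3, ITGB2, EPCAM, ICAM2 and CD44 were lower in both. PECAM1, ALCAM, CD82 and CD151 were higher in U-H01 uninduced than in HBL-1 uninduced and lower in U-H01 labelled induced than in HBL-1 induced, and ITGB7 and ITGB1 were called the other way round. The smaller of these calls, those of ALCAM, CD82, CD151 and CD44 without induction (0.57, 0.54, 0.76 and -0.71 log2) and those of ITGB1, ITGAV, ITGB7 and ICAM2 with it (0.32, 0.45, 0.64 and -0.57), were each lost in at least 1 fit with an array left out. For all 8 such a fit was one without an HBL-1 array of the comparison. Over the fits with an array left out, ALCAM stayed at 0.45 to 0.69, CD82 at 0.49 to 0.62, CD151 at 0.60 to 0.93 and CD44 at -0.86 to -0.56 without induction, and ITGB1 at 0.26 to 0.37, ITGAV at 0.21 to 0.70 and ICAM2 at -0.70 to -0.51 with it. Over the 36 members, arrays correlated at a median of 0.423 between the U-H01 groups, 0.554 between the uninduced lines, 0.326 between the induced ones and 0.993 between the HBL-1 groups, as a description of points that share arrays and normalization.

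**Figure D5:**
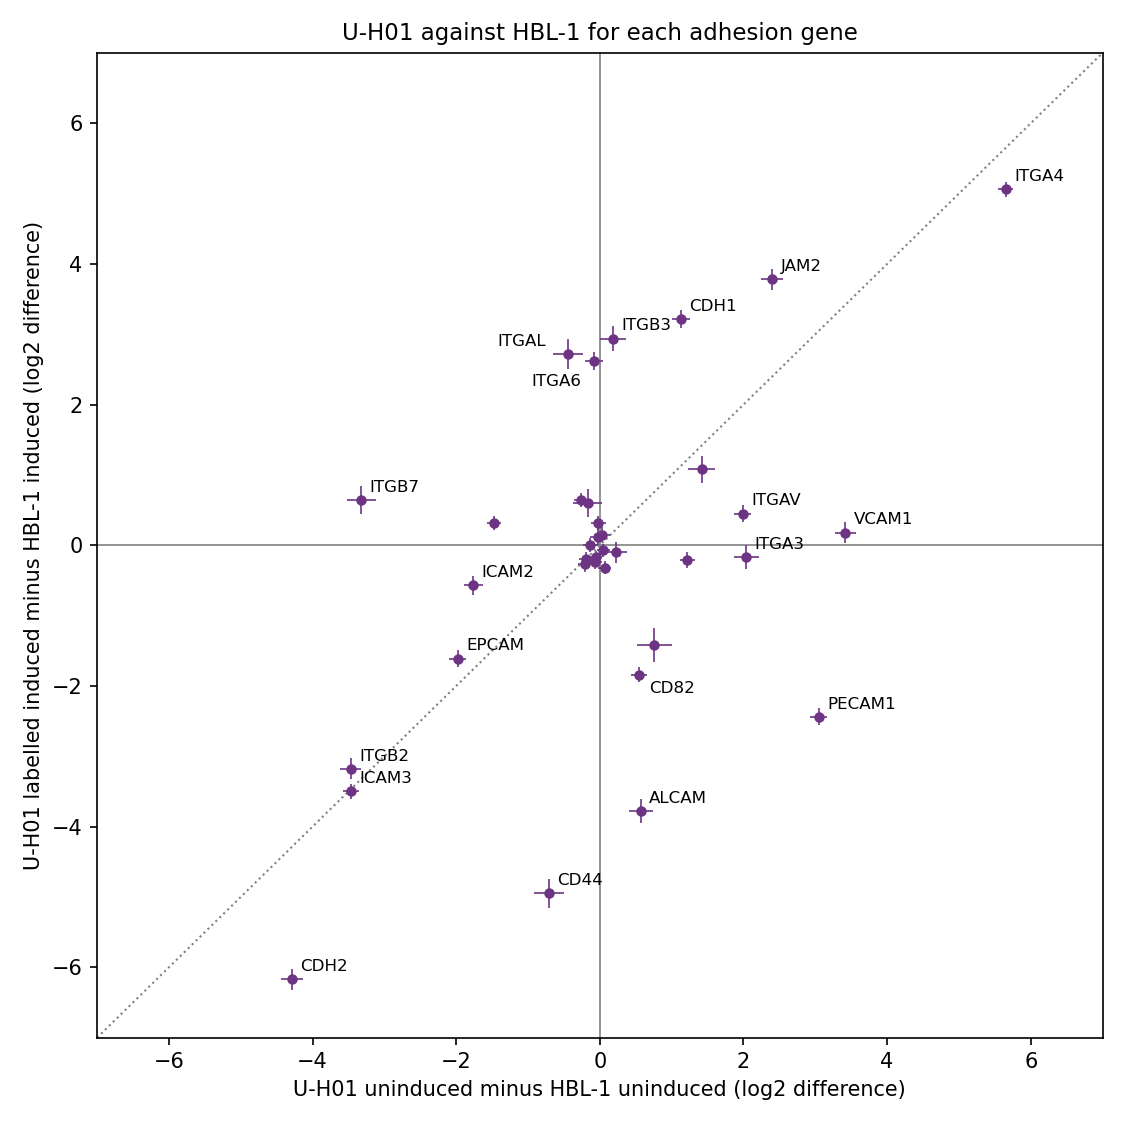
Log2 difference between U-H01 and HBL-1 for each of the 36 members, uninduced arrays on the horizontal and induced arrays on the vertical axis, with standard errors as bars and equal differences on the dotted line. ITGA4 (5.65 and 5.06) and CDH2 (-4.29 and -6.17) lie farthest out on either side, while PECAM1 (3.05 and -2.44) and ITGB7 (-3.32 and 0.64) change sign.

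Few of these genes were called between populations B1 and B2. In uninduced U-H01, 3 of 36 members were lower in B2 than in B1, where 3.3% of all genes were called in either direction. CD44 read 9.67 and 9.63 in B2, against 10.50 and 10.46 in B1 (-0.83 ± 0.11, adjusted p = 0.00368, limma). ICAM1 read 9.60 and 9.59 in B2, against 10.39 and 10.35 in B1 (-0.77 ± 0.18, adjusted p = 0.0396, limma), and ITGA3 6.93 and 7.09 in B2, against 7.63 and 7.74 in B1 (-0.68 ± 0.11, adjusted p = 0.00826, limma). The change with the label differed between B2 and B1 for 2 of 36 members, where 0.586% of all genes were called. CD44 differed by -3.66 and -3.54 in B2 at the 2 time points, against -4.75 and -4.53 in B1 (difference of changes 1.04 ± 0.16, adjusted p = 0.0159, limma). CD151 differed by -1.68 and -1.77 in B2, against -3.10 and -2.62 in B1 (1.14 ± 0.20, adjusted p = 0.0376, limma). With 2 arrays per population and state, all 5 of these calls were lost in some fits with an array left out. The uninduced differences then ran from -0.89 to -0.77 for CD44, -0.92 to -0.63 for ICAM1 and -0.74 to -0.62 for ITGA3. The differences of changes ran from 0.96 to 1.13 for CD44 and 0.86 to 1.42 for CD151. Of the 12 fits, 2 lost CD44, 8 ICAM1 and 4 ITGA3, and 5 lost the change of CD44 and 10 that of CD151, among them for each the fits without uninduced B1 at the first and uninduced B2 at the second time point.

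Genes that act with the members were read from lists of related roles, whose counts in U-H01 stand against 22.3% of all genes higher and 23.5% lower. Of 25 genes of integrin activation, 9 were higher and 7 lower in U-H01 labelled induced than in U-H01 uninduced, where 45.8% of all genes were called, with a median of 0.10 log2. APBB1IP (RIAM), which brings talin to integrins, averaged 4.59 in U-H01 labelled induced and 7.01 in U-H01 uninduced (-2.42 ± 0.09, adjusted p = 4.29e-10, limma). Vinculin (VCL), which ties talin to actin, averaged 5.04 in U-H01 labelled induced and 7.17 in U-H01 uninduced (-2.13 ± 0.08, adjusted p = 2.79e-10, limma). Talin 2 (TLN2) went the other way, at 7.34 in U-H01 labelled induced and 5.78 in U-H01 uninduced (1.57 ± 0.08, adjusted p = 4.2e-09, limma). FERMT3 (kindlin-3), the integrin activator of blood cells, was higher in U-H01 than in HBL-1, by 4.33 ± 0.12 with induction (adjusted p = 4.57e-11, limma) and 3.73 ± 0.12 without (adjusted p = 1.19e-10, limma).

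Of 19 focal adhesion genes, 5 were higher and 6 lower in U-H01 labelled induced than in U-H01 uninduced, near the shares over all genes (22.3% and 23.5%). PTK2, the focal adhesion kinase, averaged 4.57 in U-H01 labelled induced and 9.05 in U-H01 uninduced (-4.48 ± 0.14, adjusted p = 4.76e-11, limma), with 4.68 in HBL-1 induced and 4.65 in HBL-1 uninduced. It was thus high in U-H01 uninduced alone, as were ITGA3 and VCAM1. Caveolin-1 (CAV1) averaged 9.82 in U-H01 labelled induced and 6.38 in U-H01 uninduced (3.44 ± 0.09, adjusted p = 1.04e-11, limma). LYN, a Src family kinase of B cells, averaged 9.21 in U-H01 labelled induced and 7.86 in U-H01 uninduced (1.35 ± 0.08, adjusted p = 2.92e-08, limma).

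Of 20 further tetraspanins, 2 were higher and 12 lower in U-H01 labelled induced than in U-H01 uninduced, where 22.3% of all genes were higher and 23.5% lower, with a median of -0.39. CD53, found on all leukocytes, was one of the higher ones, at 10.32 in U-H01 labelled induced and 4.98 in U-H01 uninduced (5.34 ± 0.12, adjusted p = 3.51e-12, limma), with 12.01 in HBL-1 induced and 12.11 in HBL-1 uninduced. TSPAN31 averaged 5.79 in U-H01 labelled induced and 10.10 in U-H01 uninduced (-4.31 ± 0.15, adjusted p = 1.76e-10, limma), and TSPAN3 9.15 in U-H01 labelled induced and 11.20 in U-H01 uninduced (-2.04 ± 0.08, adjusted p = 4.2e-10, limma). Of 25 genes of matrix ligands and hyaluronan synthases, 3 were higher in U-H01 labelled induced. These were the laminin chain LAMC1 (4.31 ± 0.10, adjusted p = 3.38e-12, limma), the hyaluronan synthase HAS2 (3.36 ± 0.12, adjusted p = 1.71e-10, limma) and the collagen chain COL6A3 (3.34 ± 0.18, adjusted p = 7.06e-09, limma). Fibronectin (FN1, -1.20) and COL4A1 (-0.39) were lower.

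Of 11 homing receptors, 5 were higher and 3 lower in U-H01 labelled induced than in U-H01 uninduced. CCR9, which guides lymphocytes to the small intestine together with alpha4 beta7, averaged 8.62 in U-H01 labelled induced and 3.95 in U-H01 uninduced (4.67 ± 0.11, adjusted p = 4.65e-12, limma), with 3.95 in HBL-1 induced and 3.86 in HBL-1 uninduced. CCR7, the receptor for lymph node entry, averaged 10.29 in U-H01 labelled induced and 12.09 in U-H01 uninduced (-1.80 ± 0.11, adjusted p = 1.96e-08, limma). GPR183, which places B cells in the follicle, averaged 8.03 in U-H01 labelled induced and 4.97 in U-H01 uninduced (3.06 ± 0.21, adjusted p = 1.03e-07, limma). In HBL-1, where 0.603% of all genes were called, CXCR4 was the only 1 of the 11 called, at 9.36 with induction and 8.36 without (adjusted p = 0.0123, limma). CXCR5, the receptor for follicle entry, averaged 4.61 in U-H01 labelled induced and 4.56 in U-H01 uninduced, 9.48 in HBL-1 induced and 9.61 in HBL-1 uninduced.

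Of 27 other adhesion receptors, 4 were higher and 9 lower in U-H01 labelled induced than in U-H01 uninduced. CD93, a molecule of endothelial and stem cells, averaged 4.58 in U-H01 labelled induced and 7.80 in U-H01 uninduced (-3.22 ± 0.11, adjusted p = 1.49e-10, limma). In HBL-1, 4 of the 27 were higher with induction and none lower, where 0.603% of all genes were called. CD36, a receptor for thrombospondin, averaged 8.79 in HBL-1 induced and 7.51 in HBL-1 uninduced (1.28 ± 0.11, adjusted p = 0.000242, limma). MPZL2 averaged 7.14 in HBL-1 induced and 5.25 in HBL-1 uninduced (1.89 ± 0.20, adjusted p = 0.00132, limma). JAML, a relative of the junctional adhesion molecules, averaged 8.21 in HBL-1 induced and 6.93 in HBL-1 uninduced (1.28 ± 0.15, adjusted p = 0.00213, limma), and NECTIN1 6.44 in HBL-1 induced and 5.80 in HBL-1 uninduced (adjusted p = 0.0431, limma).

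Of 12 cadherin and catenin genes outside the set, 1 was higher and 4 lower in U-H01 labelled induced than in U-H01 uninduced. Beta-catenin (CTNNB1), which links cadherins to the cytoskeleton, averaged 9.44 in U-H01 labelled induced and 10.72 in U-H01 uninduced (-1.27 ± 0.07, adjusted p = 1.44e-08, limma). Plakoglobin (JUP), with the same role, averaged 5.72 in U-H01 labelled induced and 9.53 in HBL-1 induced (-3.81 ± 0.12, adjusted p = 9.34e-11, limma), and 5.85 in U-H01 uninduced and 9.57 in HBL-1 uninduced (-3.72 ± 0.12, adjusted p = 9.21e-11, limma). Of 12 genes of selectin ligand synthesis, 4 were higher and 4 lower in U-H01 labelled induced than in U-H01 uninduced. Of 8 integrin genes outside the set 1, ITGA11, was higher (0.24 ± 0.08, adjusted p = 0.0331, limma).

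Of 6 measured B-cell markers, 3 (CD79A, PAX5 and CD22) were higher, 1 (BLK) was lower and 2 (CD79B and MS4A1) were not called in U-H01 labelled induced against U-H01 uninduced, and their mean level was 8.08 to 8.38 in U-H01 labelled induced and 6.18 to 6.44 in U-H01 uninduced, with 10.21 to 10.34 over HBL-1. CD79A, which signals for the B-cell receptor, averaged 11.04 in U-H01 labelled induced and 5.73 in U-H01 uninduced, and PAX5, the B-cell identity factor, 11.81 in U-H01 labelled induced and 9.05 in U-H01 uninduced. MS4A1 (CD20) averaged 4.52 in U-H01 labelled induced and 4.49 in U-H01 uninduced, with 10.97 in HBL-1 induced and 10.98 in HBL-1 uninduced. Of 7 Hodgkin cell markers 2 were higher and 4 lower, and their mean level was 6.73 to 6.97 in U-H01 labelled induced and 7.57 to 7.62 in U-H01 uninduced. Of 8 T and NK cell markers NKG7 (0.62) and CD2 (0.36) were higher, none of 7 myeloid ones was called, and of 6 stromal ones PDGFRB (0.59) was higher. Beside these marker counts, 45.8% of all genes were called between the U-H01 groups, 22.3% higher and 23.5% lower. The part of the marker shifts in the adhesion results was not tested.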

How the data were processed

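Total RNA of 12 samples was hybridised to single-colour arrays. The log2 expression values are those deposited by the authors. RMA and Partek are named, without versions, per the submitters' processing notes. RMA brings arrays to like distributions, which can hide a shift of all genes. Of 33297 probe sets, 19460 had 1 symbol in the platform annotation, 1754 several and 12083 none. Only the first were fitted, with no filter on low values, and the brightest of them then stood for each of 18417 genes. Arrays have no depth, and their number limits the precision.

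Groups came from the titles. A single linear model of the 12 arrays was fitted with limma 3.58.1 in R 4.3.3, with population, time point within line and induction within line (7 terms, 5 residual degrees of freedom). The comparisons of B1 and B2 took 8 terms. Tests were two-sided, and Benjamini-Hochberg adjustment ran over all 19460 probe sets with 1 symbol. Differences carry a standard error, and the fit was tested on simulated data. Members, gene lists and tests were chosen with earlier results of these data known. Each member was to be named once, with array values for the 12 largest calls in U-H01, every call in HBL-1, the 8 largest between lines and every B1 against B2 call. ICAM1, RELB and REL were added. Of other lists, the 3 genes of smallest p in each comparison were eligible, and NECTIN1 was added after its value was seen. CDH5, ITGA2B, CD2, FUT4 and 3 collagen genes stand in a marker list and another list. Plots were made with matplotlib 3.10.9. Alternatives were other scalings, filters and model terms, each line alone, a replicate block and arrays left out.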

Additional observations from a re-analysis of the deposited data

Results flagged for a closer look

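In U-H01 labelled induced, the ALCAM level of B1 at the first time point, 6.32, stood far above the other 3 arrays (5.37 to 5.40). This was 1 of 72 groups of 4 arrays examined, and chance flags about 1 in 20 such groups.

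The change with the label in U-H01 differed from the change with induction in HBL-1 for 21 members, in a test of the difference itself. On the log2 scale, the U-H01 change minus the HBL-1 change was positive for ITGB7 (3.96), ITGAL (3.16), ITGB3 (2.75), ITGA6 (2.71), CDH1 (2.09), ITGB1 (1.78), JAM2 (1.38), ICAM2 (1.19) and ITGAE (0.91). It was negative for PECAM1 (-5.49), ALCAM (-4.36), CD44 (-4.24), VCAM1 (-3.24), CD82 (-2.39), ITGA3 (-2.21), CD151 (-2.18), CDH2 (-1.89), ITGAV (-1.54), JAM3 (-1.43), ITGA4 (-0.59) and NCAM1 (-0.39). The call of NCAM1 was lost in 9 of 12 fits with an array left out (-0.43 to -0.35) and that of ITGA4 in 2 of 12, those without either HBL-1 array of the first time point (-0.77 to -0.42). Both were also lost with group means only. The HBL-1 changes themselves lay between -0.45 and 0.82. Within U-H01 the change of B2 minus that of B1 was 1.04 for CD44 and 1.14 for CD151.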

How the results depend on the processing

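Over 25 alternatives, the 34 differences described array by array were recomputed 716 times. They kept direction and side of the threshold in 677, lost the call in 39 and reversed in 0. Those from the U-H01 and line comparisons were picked as the largest calls, which favours keeping the call. Of all 25 members called between the U-H01 groups, 3 lost the call in at least 1 alternative. Smaller calls between the lines also lost it, as given above. Of 148 recomputed counts of called members, 124 stayed within 1.5 times. Restricted to brighter probe sets (mean above the median), only 16 members were left. Of these, 15 were called between the U-H01 groups and 13 for the difference of changes. The mean runs over all arrays, so a member low in a U-H01 group can pass by its level elsewhere. PECAM1 did so, with 5.04 in U-H01 labelled induced and 10.64 in U-H01 uninduced. Passing the filter and being called are thus not independent, and no share over all brighter probe sets is given. These counts therefore do not tell whether brighter members were called more often. In HBL-1 the count was 0 with all probe sets tested, 3 with HBL-1 arrays alone and 0 to 1 with an array left out. Leaving out the 4 labelled induced U-H01 arrays, chosen after seeing the data, gave 2. For B2 against B1 in uninduced U-H01 it was 0 to 3 with an array left out. For their difference of changes it was 0 with all probe sets tested, 1 with U-H01 alone and 0 to 2 with an array left out. The causes were not tested. With a replicate block, which pairs arrays by population and time point, the counts were 25, 1, 20, 24, 21, 3 and 2, as without it. Deviations of paired arrays correlated at -0.02 to 0.14 over the 6 pairs. Other scalings shifted the median of all genes by at most 0.043. Levels near the lower quartile of an array limit every fold, and 2 arrays a group limit HBL-1.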
